A study of Homo sapiens with 40 samples.

Results

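Solute carriers are membrane proteins that move sugars, amino acids, nucleotides, metals, ions and vitamins across the plasma membrane and the membranes of mitochondria, lysosomes, the endoplasmic reticulum and the Golgi. The genes described here were the protein-coding genes whose symbol begins with SLC and a digit, with SLC7A11 left out and with a mean of at least 50 counts over the 40 libraries. This gave 184 genes of the 373 with such a symbol, in a table of 19962 genes; 189 fell below the threshold, and 63 of those had no count in any library. The 184 genes belong to 43 numbered subfamilies, which were sorted into 18 roles by subfamily number. SLC2A4RG, SLC4A1AP and SLC7A6OS carry the prefix but are not carriers, and they were set apart after the names were seen. Around the threshold, SLC39A1 (43.8 mean counts) and SLC25A21 (47.42) lay just outside, and SLC22A15 (50.05), SLC22A18 (50.08) and SLC25A30 (52.65) lay just inside. SLC22A18 passed only through the siIGF2BP2 libraries, where it averaged 114 counts against 42.97 over the other libraries, so its values there are given below as a description, although the counts of called genes include it.

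The cells were RKO, an established colorectal carcinoma line, in 3 derivatives that all carry a doxycycline-inducible Cas9 with GFP. Each derivative is a pool of sorted blue-fluorescent cells (eBFP2, driven by PGK) transduced with a lentivirus that expresses a pair of guides from U6 promoters. The guides target AAVS1, a safe-harbour control locus, or IGF2BP2 or IGF2BP3, which encode RNA-binding proteins. The study asked how IGF2BP3 bears on RNA metabolism in the unfolded protein response. Each derivative was given DMSO or doxycycline (Dox, 250 ng/mL for 72 h), in 4 libraries per group. The sgIGF2BP2 and sgIGF2BP3 cells were also transfected for 48 h with 75 nM of a non-targeting siRNA pool (siControl) or of a pool against the gene that their guides target, again in 4 libraries per group, and their labels give no other treatment. All 10 groups received the uridine analogue 4-thiouridine (s4U, 250 µM) for 2 h. The quadruplicates were wells of a 24-well plate, and nothing says that they were separate cultures or days, so p-values measure only the spread between these samples.

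Amino acid carriers feed protein synthesis and the growth sensor mTORC1. Glucose and lactate carriers (GLUT and MCT proteins) set the fuel and acid balance of tumour cells. Carriers of the SLC25 family link the mitochondrial matrix with the cytosol, SLC35 proteins bring nucleotide sugars and related substrates into the secretory pathway for glycosylation, and SLC30 and SLC39 proteins export and import zinc. In intestinal epithelium and its tumours these families are known for nutrient uptake and for adapting to shortage of amino acids, oxygen or bicarbonate.

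The libraries held 10018181 to 24822807 counts (median 13468792), and 11428 genes passed the filter on low counts, including all 184 solute carrier genes. The targeted genes followed the labels: IGF2BP2 stood at 39.73% of its DMSO level after Dox in sgIGF2BP2 cells and at 27.91% of siControl with siIGF2BP2, and IGF2BP3 stood at 31.19% and 14.58% in the matching comparisons. IGF2BP3, not targeted there, also stood lower with Dox in sgIGF2BP2 cells, at 84.46% of DMSO (-0.25, edgeR adjusted p = 2.93e-06). Of the colorectal epithelial markers, KRT18 (185 CPM, counts scaled to library size), KRT8 (52.9 CPM), CDX2 (19.5 CPM) and EPCAM (13.9 CPM) were present, whereas CDH1, KRT19 and VIL1 were near 0 and KRT20 and CDX1 had no count in any library. The summed fibroblast markers reached at most 1.104 CPM in any library and the leukocyte markers at most 3.518 CPM, mostly CD68. Replicate 2 of the sgIGF2BP2 Dox group differed most from its group. In bulk RNA, fewer cells of a kind and less RNA per cell cannot be told apart. Whether reads were counted by strand is not given in the sources used here, and 44 of the 184 genes share exon bases with a gene on the opposite strand, among them SLC37A3, SLC16A3, SLC5A6, SLC25A35, SLC27A5, SLC31A2, SLC35A4 and SLC4A8.

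The mitochondrial and amino acid families held the greatest shares of solute carrier CPM. The 184 genes together took 1.13% to 1.24% of the counts in each library, and their mean level ran from 3.56 to 577 CPM with a median of 33.0. Scaled by exon length, SLC25A5, the ADP/ATP exchanger of the inner mitochondrial membrane, was highest at 331 CPM per kilobase, although near-identical copies may share its reads. The glutamine carrier SLC1A5 followed at 147 CPM per kilobase and SLC25A39, known for glutathione import into mitochondria, at 114. The rest of the 10 highest per kilobase were SLC25A1 (citrate), SLC27A4 (fatty acids), SLC2A4RG, SLC38A5 (glutamine), SLC25A3 (mitochondrial phosphate), SLC7A5 (large neutral amino acids) and SLC4A2 (chloride and bicarbonate), between 56.7 and 86.3 CPM per kilobase. The 37 mitochondrial carriers held 24.8% of all solute carrier CPM, the 26 amino acid carriers 23.95%, and the 21 SLC35 genes 9.22%. Their medians were 29.7, 51.2 and 43.1 CPM, so the typical mitochondrial carrier lay below the median of all 184 genes. The top 10 genes by CPM held 32.7%.

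**Figure D1:**
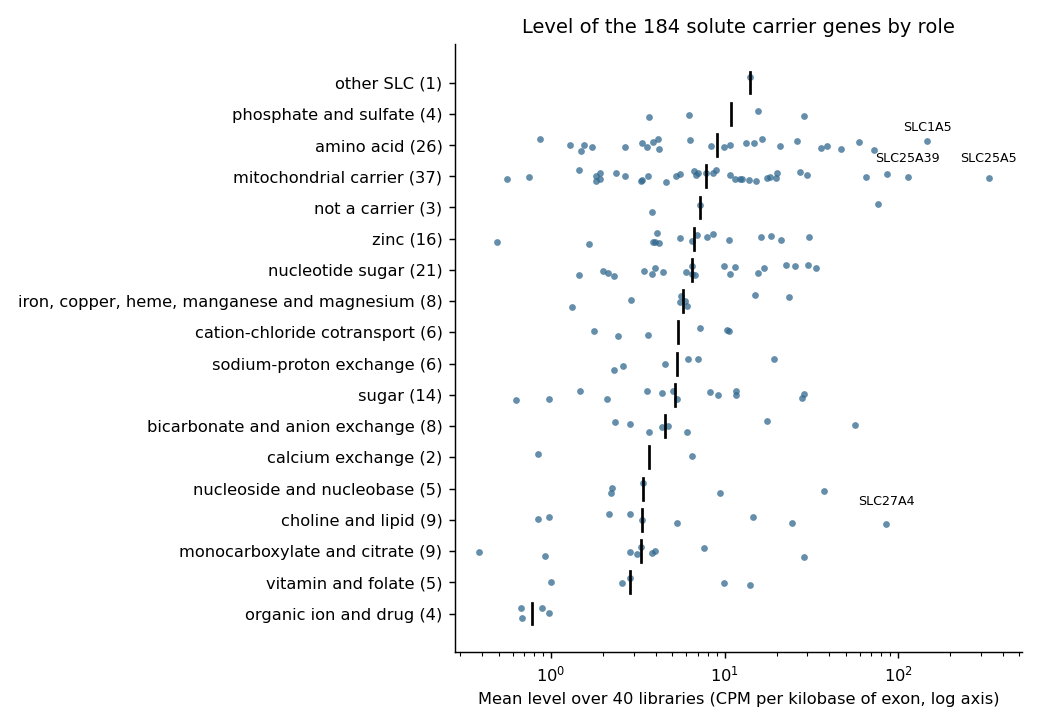
Mean level of each of the 184 genes over the 40 libraries, in CPM per kilobase of exon on a log axis, by role; each point is a gene and the black tick is the median of the role. SLC25A5 lies farthest to the right at 331 CPM per kilobase, and the median of all 184 genes is 6.04.

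Within the roles, the genes of highest CPM were SLC25A3 among mitochondrial carriers (577 CPM), SLC1A5 among amino acid carriers (491), SLC4A2 among anion exchangers (430) and SLC27A4 among choline and lipid carriers (266). The lactate exporter SLC16A3 led the monocarboxylate carriers (259 CPM), and the nucleoside carrier SLC29A1 its own role (165). SLC5A6, which takes up biotin and pantothenate, led the sugar families (161), to which its subfamily number assigns it. SLC17A9, a carrier of nucleotides into vesicles, led the phosphate families (158). SLC35A4 (136), the zinc and iron importer SLC39A14 (129), the copper importer SLC31A1 (120) and the folate carrier SLC19A1 (98.8) led their roles, as did SLC12A9, SLC22A5, SLC18B1, SLC8B1 and SLC2A4RG in the smaller ones. SLC25A3 varied little, at 527 to 626 CPM over the 40 libraries.

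Levels moved little between the 10 groups. The ratio of the highest to the lowest group mean had a median of 1.255 over the 184 genes and was under 1.5 for 158 of them; it reached at least 2 for SLC22A18 (4.18), the lysosomal SLC46A3 (2.26) and SLC37A3 (2.12). With DMSO, no gene passed the test between lines: edgeR's quasi-likelihood test with Benjamini-Hochberg adjustment called 0 of 184 genes in sgIGF2BP2 and 0 in sgIGF2BP3 cells against sgAAVS1 cells, against 0.0175% of the 11428 genes tested in each case. DESeq2 also called 0 and 0, and 17 and 23 genes had an unadjusted p under 0.05. The change was above 0 for 64 of the 184 genes in sgIGF2BP2 cells (median -0.0337, against -0.00224 over all genes tested, of which 48.8% were above 0) and for 90 in sgIGF2BP3 cells (median -0.00222). The sgIGF2BP2 DMSO libraries are also the base of the Dox and siControl comparisons of that line. All calls below are from this edgeR test at an adjusted p under 0.05, higher means higher in the group named first, and changes are log2 fold changes with their standard error (SE).

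The siRNA against IGF2BP2 went with the most changes. Of the 184 genes, 87 were called, 37 higher and 50 lower. This is 47.3%, against 36.8% of all genes tested and 39.9% of tested genes with a mean of at least 50 counts. By direction, 20.1% of the solute carrier genes were higher, against 18.4% of all tested and 19.3% of those at the same count threshold, and 27.2% were lower, against 18.4% and 20.6%. The median change was -0.0222, against 0.0108 over all genes tested, and the called changes ran from -1.04 to 0.52, leaving SLC22A18 aside. Of the 87 calls, 63 held in every alternative fit and 24 did not.

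In the sugar families, 7 of 14 were lower, namely SLC2A1, SLC2A3, SLC2A13, SLC37A3, SLC45A3, SLC5A3 and SLC5A6, while SLC2A10, SLC37A4 and SLC50A1 were higher, and the median was -0.176. The greatest fall of all was that of SLC37A3 (ENSG00000157800, GRCh38 chr7:140293693-140404433, minus strand), a member of the sugar-phosphate exchanger family known for letting bisphosphonates out of lysosomes. SLC37A3 stood at 22.3, 17.9, 20.5 and 18 CPM with siIGF2BP2 and at 40.9, 37.7, 40.6 and 41.9 CPM with siControl. The groups were far apart, with a change of -1.04 (SE 0.07, edgeR adjusted p = 1.86e-20), or 0.486 of the siControl level. With siIGF2BP3 the change of SLC37A3 was -0.07 (SE 0.06, edgeR adjusted p = 0.714), and the 2 siRNA effects differed by 0.98 (SE 0.10, edgeR adjusted p = 5.34e-13). The basal glucose carrier SLC2A1 (GLUT1) stood at 106, 114, 109 and 105 CPM against 128, 128, 135 and 133 CPM, a change of -0.27 (SE 0.04, edgeR adjusted p = 1.04e-07). The high-affinity glucose carrier SLC2A3 (GLUT3) stood at 12.1, 13.5, 13.7 and 12.7 CPM against 16.2, 19.6, 16.3 and 15.9 CPM, with no overlap, a change of -0.39 (edgeR adjusted p = 0.000183).

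Among the 26 amino acid carriers, 7 were higher and 5 lower, with a median of 0.00698. The lower genes were SLC6A8 and 4 members of SLC7, and the partner protein of the SLC7 exchangers moved the other way. SLC7A5 (LAT1; ENSG00000103257, GRCh38 chr16:87830023-87869488, minus strand), the exchanger of large neutral amino acids, stood at 208, 219, 194 and 207 CPM with siIGF2BP2 and at 273, 278, 273 and 274 CPM with siControl. Every siIGF2BP2 library lay below every siControl library, and the change was -0.41 (SE 0.03, edgeR adjusted p = 2.51e-15). Pseudogene copies may share reads with SLC7A5. SLC7A2 (CAT2), a carrier of arginine and lysine, stood at 17.1, 19.4, 14.9 and 15.4 CPM against 23.6, 23.3, 23.7 and 22.5 CPM, a change of -0.48 (edgeR adjusted p = 7.72e-08). SLC3A2, the heavy chain that brings SLC7A5 to the plasma membrane, rose by 0.15 (edgeR adjusted p = 0.00222). SLC38A10 rose by 0.32 (162 ± 1.56 against 130 ± 2.54 CPM, SD, n = 4, edgeR adjusted p = 2.24e-09). SLC38A6, an orphan of the glutamine carrier family, stood at 9.61, 12.2, 11.8 and 10.4 CPM against 8.52, 8.00, 8.49 and 7.01 CPM, a rise of 0.45 (edgeR adjusted p = 0.000349). The amino acid carriers therefore split, with members on both sides of their controls.

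Carriers of acetyl-CoA, nucleotide sugars and monocarboxylates were among the genes that fell most. SLC33A1 (ENSG00000169359, GRCh38 chr3:155821024-155854456, minus strand), which brings acetyl-CoA into the endoplasmic reticulum, stood at 5.63, 4.31, 5.95 and 4.36 CPM against 9.69, 9.84, 10.1 and 10.2 CPM. The libraries did not overlap, and the change was -0.99 (SE 0.13, edgeR adjusted p = 3.69e-09). SLC35D1, which carries UDP-glucuronic acid and UDP-N-acetylgalactosamine into the endoplasmic reticulum, stood at 16.2, 16.9, 17.1 and 17.3 CPM against 26.6, 25.1, 25.3 and 26.8 CPM, a change of -0.62 (SE 0.07, edgeR adjusted p = 2.48e-10). Of the 21 SLC35 genes, 7 were higher, 3 lower and 11 not called, with a median of -0.00786. SLC35E3, an orphan member, stood at 52.6, 52.4, 51.2 and 53.1 CPM against 39.9, 39.8, 40.6 and 37.1 CPM, a rise of 0.41 (edgeR adjusted p = 8.74e-09). SLC35A5, a Golgi carrier of UDP-sugars, stood at 12.5, 14.3, 12.9 and 14.3 CPM against 9.79, 9.51, 12.1 and 10.0 CPM, a rise of 0.39 (edgeR adjusted p = 0.00259). Of the 9 monocarboxylate and citrate carriers, 2 were higher and 3 lower. The lactate and pyruvate carrier SLC16A1 (MCT1; ENSG00000155380, GRCh38 chr1:112911847-112957013, minus strand) stood at 12.1, 13.2, 11.1 and 13.2 CPM against 19.7, 17.2, 19.3 and 17.3 CPM. It fell by 0.57 (SE 0.09, edgeR adjusted p = 1.45e-07), and SLC16A7 (MCT2), at 3.62 to 4.61 against 5.42 to 6.56 CPM, fell by 0.58 (edgeR adjusted p = 0.00129), while the change of the lactate exporter SLC16A3 was -0.04 (edgeR adjusted p = 0.527).

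By subfamily number, the zinc, metal, phosphate, bicarbonate, cation-chloride and sodium-proton families each held more lower than higher genes. Over all genes tested, 18.4% were higher and 18.4% lower. In the phosphate families SLC17A5, SLC17A9 and SLC20A1 were lower and SLC20A2 was higher, so the SLC20 genes split. Of the 16 zinc carriers, 5 were lower and 1 higher, and all 3 called among the 8 carriers of iron, copper, heme, manganese and magnesium were lower. SLC39A10, a zinc importer, stood at 18.7, 20.0, 18.5 and 18.5 CPM against 27.6, 28.9, 26.2 and 26.6 CPM, a change of -0.53 (edgeR adjusted p = 6.34e-10). SLC30A9 stood at 52.2, 49.0, 47.1 and 46.0 CPM against 65.2, 67.7, 69.1 and 67.7 CPM, a change of -0.48 (edgeR adjusted p = 6.39e-11). SLC4A7, a sodium-bicarbonate cotransporter, stood at 39.9, 38.8, 31.5 and 43.1 CPM against 59.9, 56.4, 51.2 and 49.2 CPM, a change of -0.50 (edgeR adjusted p = 1.48e-08). These 3 genes had no overlap between the groups. SLC18B1, a vesicular carrier of polyamines, fell by 0.61 (29.1 to 30.8 against 41.8 to 48.6 CPM, edgeR adjusted p = 3.59e-11), and the phosphate importer SLC20A1 fell by 0.30 (73.3 ± 2.39 against 90.5 ± 1.70 CPM, SD, n = 4, edgeR adjusted p = 6.90e-09). The 3 lower metal carriers (SLC11A2, SLC31A2 and SLC41A2), SLC4A7, SLC18B1 and SLC20A1 were called higher with siControl than with DMSO in this line. Their falls are thus measured from a raised control, and siIGF2BP2 was not tested against DMSO. SLC39A10 and SLC30A9 were not called in that siControl comparison.

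The mitochondrial carriers held 6 higher and 8 lower of 37, and the choline and lipid carriers 3 and 3 of 9. SLC25A29 (ENSG00000197119, GRCh38 chr14:100291111-100306547, minus strand), a carrier of basic amino acids, stood at 114, 105, 108 and 114 CPM against 81.1, 76.3, 74.7 and 77.6 CPM. It rose by 0.51 (SE 0.04, edgeR adjusted p = 3.37e-16), without overlap. The orphan mitochondrial carrier SLC25A35, at 16.4 to 18.6 against 11.5 to 13.1 CPM, rose by 0.52 (edgeR adjusted p = 1.22e-07), and SLC27A5, a bile acid and fatty acid CoA ligase, at 26.1 to 33.8 against 21.1 to 23.5 CPM, by 0.39 (edgeR adjusted p = 9.21e-06). SLC46A3, a lysosomal carrier, stood at 5.02, 6.39, 5.95 and 5.99 CPM against 4.49, 3.87, 3.93 and 4.37 CPM, a rise of 0.49 (edgeR adjusted p = 0.00567). SLC22A18, of the organic ion family, stood at 8.31, 8.01, 9.37 and 8.11 CPM with siIGF2BP2 and at 3.42, 3.34, 2.83 and 4.14 CPM with siControl, and its mean in the other 8 groups ran from 2.02 to 4.28 CPM. It shares exon bases with the antisense gene SLC22A18AS. The summed colorectal epithelial markers, mostly KRT18 and KRT8, also stood lower with siIGF2BP2, at 205.2 to 244.2 CPM against 244.7 to 248.9 CPM. The part of these markers in the changes was not tested.

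**Figure D2:**
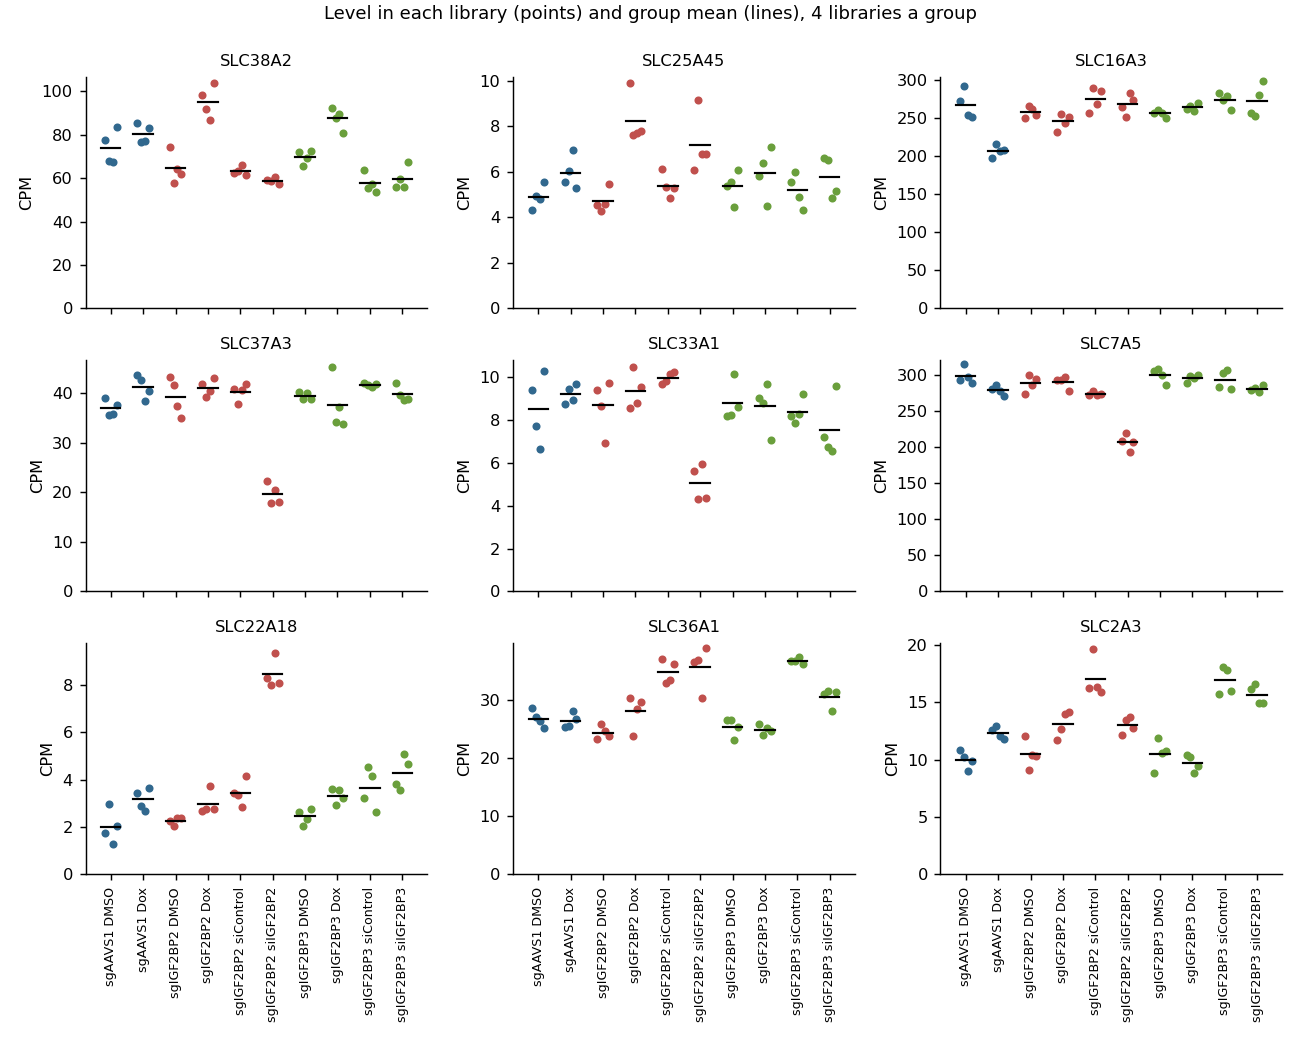
CPM of 9 named genes in every library, by group, with the group mean as a line. SLC37A3, SLC33A1 and SLC7A5 lie lowest in the 4 siIGF2BP2 libraries, where SLC22A18 lies highest; SLC2A3 and SLC36A1 are higher with siControl than with DMSO in both lines.

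The siRNA against IGF2BP3 went with 2 called genes of 184, both lower, which is 1.09% against 2.34% of all genes tested (0.936% higher and 1.4% lower) and 2.63% of those with a mean of at least 50 counts. SLC16A1 stood at 14.5, 14.2, 15.6 and 14.4 CPM with siIGF2BP3 and at 18.6, 18.8, 19.8 and 17.3 CPM with siControl. The groups did not overlap and the change was -0.34 (SE 0.08, edgeR adjusted p = 0.0105). SLC36A1 (PAT1; ENSG00000123643, GRCh38 chr5:151437046-151492381, plus strand), a proton-coupled amino acid carrier of lysosomes, stood at 31, 31.5, 28.2 and 31.4 CPM against 36.7, 36.7, 37.3 and 36.1 CPM, a change of -0.26 (SE 0.06, edgeR adjusted p = 0.0108). SLC16A1 was the gene called in the same direction with both siRNAs, and its 2 effects were not told apart (difference 0.22, edgeR adjusted p = 0.206). The call of SLC16A1 was lost without siControl replicate 3 of the sgIGF2BP3 cells, and that of SLC36A1 without siIGF2BP3 replicate 3. With Dox in sgIGF2BP3 cells, the change of SLC16A1 was 0.13 (edgeR adjusted p = 0.433).

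The effects of the 2 siRNAs differed for 42 of 184 genes, 24 higher and 18 lower in the siIGF2BP3 effect, which is 22.8% against 18.7% of all genes tested (9.88% higher and 8.82% lower) and 20.6% of those with a mean of at least 50 counts. Besides SLC37A3, the effects differed for SLC7A5 by 0.34 (SE 0.05, edgeR adjusted p = 2.02e-07), SLC7A2 by 0.58 (edgeR adjusted p = 5.10e-06), SLC20A1 by 0.29 (edgeR adjusted p = 0.000134) and SLC38A10 by -0.36 (edgeR adjusted p = 2.11e-06). For SLC35A4 and SLC4A8 the means moved in opposite directions. SLC35A4, a Golgi member of the nucleotide sugar family, stood at 157 ± 4.24 with siIGF2BP2 against 137 ± 6.73 CPM, and at 134 ± 2.09 with siIGF2BP3 against 147 ± 7.29 CPM (SD, n = 4); the effects differed by -0.33 (SE 0.06, edgeR adjusted p = 6.23e-06). The sodium-driven bicarbonate exchanger SLC4A8 stood at 40.6 ± 1.94 against 44.8 ± 3.40 CPM and at 46.6 ± 2.31 against 41.5 ± 1.64 CPM, a difference of 0.32 (SE 0.08, edgeR adjusted p = 0.00161). The difference for SLC36A1 was -0.29 (edgeR adjusted p = 0.0147) and was lost without siIGF2BP2 replicate 4. Of the 42 calls, 28 held in every alternative.

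Dox in sgIGF2BP2 cells went with 43 called genes of 184, 30 higher and 13 lower. This is 23.4%, against 20.4% of all genes tested and 21.9% of tested genes with a mean of at least 50 counts. By direction 16.3% were higher, against 10.0% of all tested and 10.2% at that threshold, and 7.07% were lower, against 10.4% and 11.7%. The count was 33 without replicate 2 of the Dox group, and 17 of the 43 calls held in every alternative. Of the 26 amino acid carriers 7 rose and 3 fell, of the 6 cation-chloride cotransporters 3 rose and 1 fell, and of the 9 choline and lipid carriers 4 rose. Of the 37 mitochondrial carriers 3 rose and 3 fell.

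SLC38A2 (SNAT2; ENSG00000134294, GRCh38 chr12:46358189-46372867, minus strand), the glutamine and alanine carrier that cells induce when amino acids run short, stood at 98.4, 91.8, 86.9 and 104 CPM with Dox and at 74.5, 57.6, 64.3 and 61.7 CPM with DMSO. Every Dox library lay above every DMSO library, with a rise of 0.56 (SE 0.06, edgeR adjusted p = 1.28e-11). SLC43A2 (LAT4), a uniporter of branched amino acids, stood at 10.3, 11.4, 12.2 and 12.7 CPM against 7.28, 8.92, 8.84 and 8.09 CPM, a rise of 0.48 (edgeR adjusted p = 0.000558). Neither gene overlapped between the groups. The mitochondrial carrier SLC25A45 (ENSG00000162241, GRCh38 chr11:65375192-65383701, minus strand) stood at 9.88, 7.63, 7.72 and 7.78 CPM against 4.55, 4.29, 4.60 and 5.44 CPM and had the greatest rise, 0.80 (SE 0.13, edgeR adjusted p = 4.14e-06). SLC46A3 stood at 4.41, 4.20, 4.41 and 3.58 CPM against 2.90, 2.40, 2.77 and 2.44 CPM, a rise of 0.65 (edgeR adjusted p = 0.00334). SLC29A3, a nucleoside carrier of lysosomes, stood at 16, 12.4, 13.8 and 13.9 CPM against 10.3, 9.87, 11.6 and 8.81 CPM, a rise of 0.44 (edgeR adjusted p = 0.000180). These 3 also did not overlap.

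The falls were smaller, from -0.104 to -0.497. SLC5A6 stood at 139, 151, 146 and 137 CPM with Dox and at 156, 160, 152 and 165 CPM with DMSO, a change of -0.14 (SE 0.04, edgeR adjusted p = 0.00274). The call of SLC25A13, the mitochondrial aspartate-glutamate carrier (-0.17, edgeR adjusted p = 0.00942), was lost without DMSO replicate 1. Those of SLC25A40, of the mitochondrial glutathione carrier family (-0.31, edgeR adjusted p = 0.0170), and of the carnitine carrier SLC22A5 (0.34, edgeR adjusted p = 0.00549) were lost without Dox replicate 4, which was the highest for SLC22A5 (15.4 against 11.5 to 11.9 CPM). The calls of SLC1A4, SLC12A2, SLC39A6 and SLC66A3 were lost in 4 or 5 alternatives each, among them leaving out DMSO replicate 1, 3 or 4 or any of the Dox replicates.

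The siRNA and the guides against IGF2BP2 can be set side by side within the sgIGF2BP2 line, since their 2 comparisons share no library. Of the 43 genes called with Dox and the 87 called with siIGF2BP2, 23 were called in both (53.5% and 26.4% of the lists, beside 45.1% and 25.0% over all genes tested), 15 in the same direction and 8 in opposite directions. SLC35F6, SLC46A3, SLC29A4 and SLC5A6 kept both calls in every alternative. SLC35F6, a lysosomal and mitochondrial member of the SLC35 family that overlaps CENPA on the same strand, rose by 0.15 with Dox and 0.25 with siIGF2BP2 (edgeR adjusted p = 0.00747 and 3.84e-06). The monoamine and nucleoside carrier SLC29A4 rose by 0.32 and 0.27 (edgeR adjusted p = 0.00212 and 0.00603), and SLC5A6 fell by 0.14 and 0.15 (edgeR adjusted p = 0.00274 and 0.000651). The rest of the 15 were SLC10A3, SLC12A2, SLC12A9, SLC16A7, SLC25A45, SLC27A1, SLC27A5, SLC38A7, SLC39A6, SLC3A2 and SLC7A1. Among the 8 with opposite signs, SLC2A3 rose by 0.32 with Dox (edgeR adjusted p = 0.00768) and fell by 0.39 with siIGF2BP2. The controls differ, and with siControl SLC2A3 stood 0.70 above DMSO in this line. Its mean was 13.12 CPM with Dox and 13 CPM with siIGF2BP2, both above the 10.47 CPM with DMSO. Why the signs of SLC2A3 differ was not tested. The Dox and siIGF2BP2 levels were not tested against each other. The change of SLC38A2 with siIGF2BP2 was -0.10 (edgeR adjusted p = 0.192). In sgIGF2BP3 cells no gene was called in both comparisons.

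Dox in sgIGF2BP3 cells went with 6 called genes of 184, 5 higher and 1 lower, which is 3.26% against 2.64% of all genes tested (1.64% higher and 1.01% lower) and 2.93% of those with a mean of at least 50 counts. SLC38A2 stood at 92.3, 87.7, 89.6 and 80.9 CPM with Dox and at 72.3, 65.6, 69.3 and 72.4 CPM with DMSO. The groups did not overlap, the rise was 0.33 (SE 0.06, edgeR adjusted p = 0.000233), and the call held in every alternative. Calls that were lost in at least 1 alternative included those of SLC35F6 (0.18, edgeR adjusted p = 0.0108), the ATP-Mg and phosphate carrier SLC25A25 (0.17, edgeR adjusted p = 0.0161), SLC17A9 (0.15, edgeR adjusted p = 0.0335) and the very-long-chain fatty acid protein SLC27A2 (-0.21, edgeR adjusted p = 0.0333). The count was 2 without DMSO replicate 3, DMSO replicate 4 or Dox replicate 2, was 3 without Dox replicate 1, and was 1 without Dox replicate 4. Of the 6 genes, 4 (66.7%), SLC38A2, SLC35F6 and SLC25A25 among them, were called in the same direction in sgIGF2BP2 cells with Dox, which is 9.3% of the 43 there; over all genes tested the shares called in both were 64.6% and 8.38%.

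Dox in the control sgAAVS1 cells went with 30 called genes of 184, 10 higher and 20 lower, which is 16.3% against 15.9% of all genes tested and 17.4% of tested genes with a mean of at least 50 counts. By direction 5.43% were higher, against 7.25% and 7.59%, and 10.9% lower, against 8.68% and 9.82%. Of the 26 amino acid carriers 6 were lower and 1 higher, and of the 37 mitochondrial carriers 6 were lower and 1 higher. The lactate exporter SLC16A3 (MCT4; ENSG00000141526, GRCh38 chr17:82228397-82261129, plus strand) stood at 197, 216, 207 and 208 CPM with Dox and at 272, 292, 255 and 251 CPM with DMSO. It fell by 0.37 (SE 0.04, edgeR adjusted p = 7.05e-10), without overlap. SLC29A1 (ENT1), the main nucleoside carrier, stood at 153, 145, 148 and 152 CPM against 180, 190, 169 and 172 CPM, a change of -0.25 (SE 0.04, edgeR adjusted p = 5.29e-07). SLC43A1 (LAT3), a uniporter of branched amino acids, stood at 36.2, 36.3, 36.1 and 36.3 CPM against 42.4, 43.7, 42.5 and 41.2 CPM, a change of -0.23 (edgeR adjusted p = 0.00268). SLC5A6 stood at 139, 146, 138 and 138 CPM against 154, 171, 161 and 162 CPM, a change of -0.21 (edgeR adjusted p = 1.58e-05). Each of these 4 genes was lower in every Dox library than in any DMSO library.

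Among the rises, SLC25A36, a mitochondrial carrier of pyrimidine nucleotides, stood at 62.5, 61.9, 54.5 and 60.7 CPM against 50.4, 43.2, 45.2 and 50.9 CPM, a rise of 0.34 (edgeR adjusted p = 6.54e-05). SLC17A5 (sialin), which exports sialic acid from lysosomes, stood at 14.6, 16.9, 14.7 and 14.9 CPM against 13.3, 10.9, 11.1 and 11.3 CPM, a rise of 0.39 (edgeR adjusted p = 0.00121), and SLC20A1 rose by 0.15 (edgeR adjusted p = 0.00641). The calls of SLC41A2, a magnesium carrier (0.44, edgeR adjusted p = 0.0147), were lost without Dox replicate 2 or 4, and those of SLC2A3 (0.31, edgeR adjusted p = 0.0184) without DMSO replicate 3, Dox replicate 1 or Dox replicate 2. Between sgAAVS1 and sgIGF2BP2 cells, 7 genes were called in the same direction with Dox, 23.3% and 16.3% of the lists, while over all genes tested the genes called in both, in either direction, were 37% and 29%: SLC17A5, SLC25A36, SLC25A5, SLC29A1, SLC2A3, SLC37A4 and SLC5A6. None was called with Dox in all 3 lines, and none was shared by sgAAVS1 and sgIGF2BP3 cells.

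Of the 20 lower genes in sgAAVS1 cells, 5 lie on distal chromosome 17q, at or beyond SPOP, a gene that itself stood at 31.1% of its DMSO level (11.4 ± 1.22 against 36.7 ± 1.48 CPM, SD, n = 4). There 8 of the 184 genes lie, and all 8 had a negative change, from -0.04 to -0.37 with a median of -0.228, beside a median of -0.173 over the 250 tested genes of the region. The called ones included SLC16A3, the dicarboxylate carrier SLC25A10 (-0.31, edgeR adjusted p = 0.00509), SLC38A10 (-0.25, edgeR adjusted p = 1.58e-05) and the ATP carrier of the endoplasmic reticulum SLC35B1 (-0.21, edgeR adjusted p = 0.00106). SLC39A11 (-0.13), SLC16A5 (-0.08) and SLC26A11 (-0.04) were not called. With Dox in the other lines the median of the 8 was 0.0056 in sgIGF2BP2 and 0.0721 in sgIGF2BP3 cells, where SPOP stood at 113.4% and 102% of DMSO. Without these 8, Dox in sgAAVS1 cells went with 10 higher and 15 lower of 176, beside 7.25% higher and 8.68% lower over all genes tested. The share of the 250 region genes called lower was not counted, so nothing here sets the 5 calls apart from the region.

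**Figure D3:**
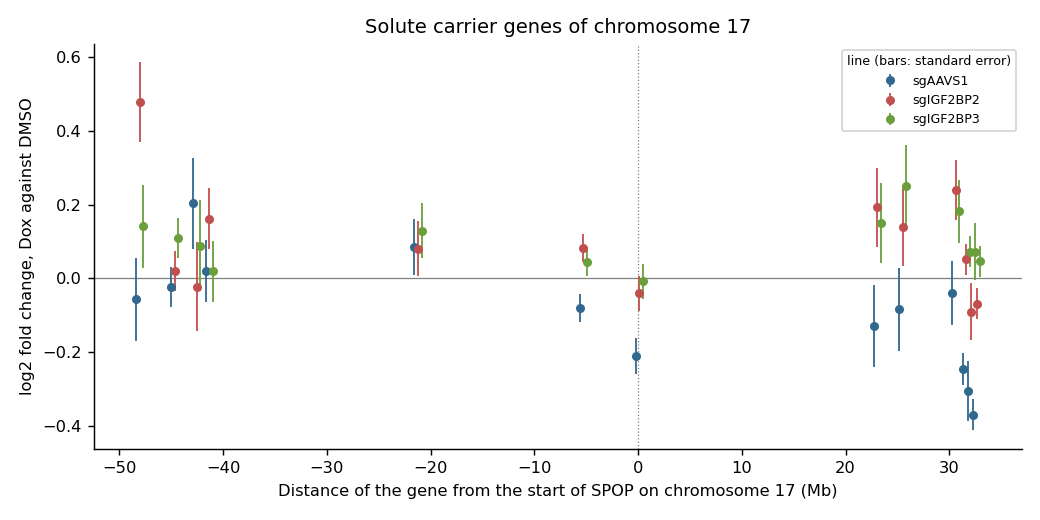
Log2 fold change with Dox (bars, SE) of 13 solute carrier genes on chromosome 17 by their distance from the start of SPOP, in the 3 lines. In sgAAVS1 cells the 7 genes plotted at or beyond SPOP all lie below 0. Over the 8 genes of the region the changes ran from -0.0904 to 0.239 in sgIGF2BP2 cells (median 0.0056). In sgIGF2BP3 cells they ran from -0.0173 to 0.251 (median 0.0721).

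The Dox effects themselves were compared between lines; both comparisons share the sgAAVS1 libraries. Against sgAAVS1 cells, the Dox effect differed for 11 of 184 genes in sgIGF2BP2 cells, 10 higher and 1 lower, which is 5.98% against 6.97% of all genes tested (4.01% higher and 2.97% lower) and 7.83% of those with a mean of at least 50 counts. It differed for 14 genes in sgIGF2BP3 cells, 11 higher and 3 lower, which is 7.61% against 7.78% (4.53% higher and 3.25% lower) and 8.75% at that threshold. SLC38A2 differed by 0.44 (SE 0.08, edgeR adjusted p = 0.000214) in sgIGF2BP2 cells and by 0.21 (SE 0.08, edgeR adjusted p = 0.118) in sgIGF2BP3 cells. In sgAAVS1 cells it stood at 85.3, 76.6, 76.9 and 83.0 CPM with Dox and at 77.5, 67.7, 67.3 and 83.6 CPM with DMSO, overlapping groups with a change of 0.12 (edgeR adjusted p = 0.174). In sgIGF2BP2 cells the effect also differed for SLC29A3 by 0.54 (SE 0.13, edgeR adjusted p = 0.00443) and SLC12A9 by 0.29 (edgeR adjusted p = 0.00295). SLC16A3 and SLC38A10, on distal 17q, differed in both lines, by 0.30 and 0.30 in sgIGF2BP2 cells and by 0.42 and 0.32 in sgIGF2BP3 cells (edgeR adjusted p between 1.53e-06 and 0.000565). The difference for SLC43A2 in sgIGF2BP2 cells (0.54, edgeR adjusted p = 0.0225) was lost without sgAAVS1 DMSO replicate 3 or sgIGF2BP2 DMSO replicate 1. The counts moved to 17 without sgAAVS1 DMSO replicate 4 or sgIGF2BP2 DMSO replicate 2 for the first, and for the second to 9 and 26 without sgAAVS1 DMSO replicate 2 and 4, and to 8 without sgIGF2BP3 DMSO replicate 4 or Dox replicate 4.

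Cells with the non-targeting siRNA differed from DMSO cells of the same line in a largely one-sided way. In sgIGF2BP2 cells 54 of 184 genes were called, 51 higher and 3 lower; in sgIGF2BP3 cells 51 were called, 46 higher and 5 lower. These are 29.3% and 27.7%, against 18.4% and 19.4% of all genes tested and 20.5% and 21.5% of those with a mean of at least 50 counts. The higher genes were 27.7% and 25.0% of the 184, against 10.2% and 10.9% of all tested and 11.4% and 12.1% at that threshold. The lower genes were 1.63% and 2.72%, against 8.16% and 8.54% of all tested and 9.15% and 9.4% at that threshold. The change was above 0 for 136 and 127 of the 184 genes (all tested genes 49.3% and 48.7%), with medians of 0.0894 and 0.0677, against -0.0021 and -0.00433 over all tested. The siRNA, its transfection and the absence of DMSO cannot be told apart in this comparison.

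The 2 lines share no library in this comparison, and 35 genes were called in both, all in the same direction, 34 higher and SLC2A1 lower. They are 64.8% and 68.6% of the 2 lists, while over all tested genes 1274 were called in both, 60.6% and 57.3% of their lists. Across the 184 genes the changes of the 2 lines had a Pearson r of 0.799, beside 0.54 across all 11428. This is a description across genes, which are not replicates. The 11428 were not limited to genes at the count threshold that the 184 passed. The overlap shares and the r values are therefore not like for like between the 184 and all tested genes. Of the 35, 21 kept both calls in every alternative. The 34 higher genes rose by 0.108 to 0.70 in sgIGF2BP2 and by 0.119 to 0.69 in sgIGF2BP3 cells.

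**Figure D4:**
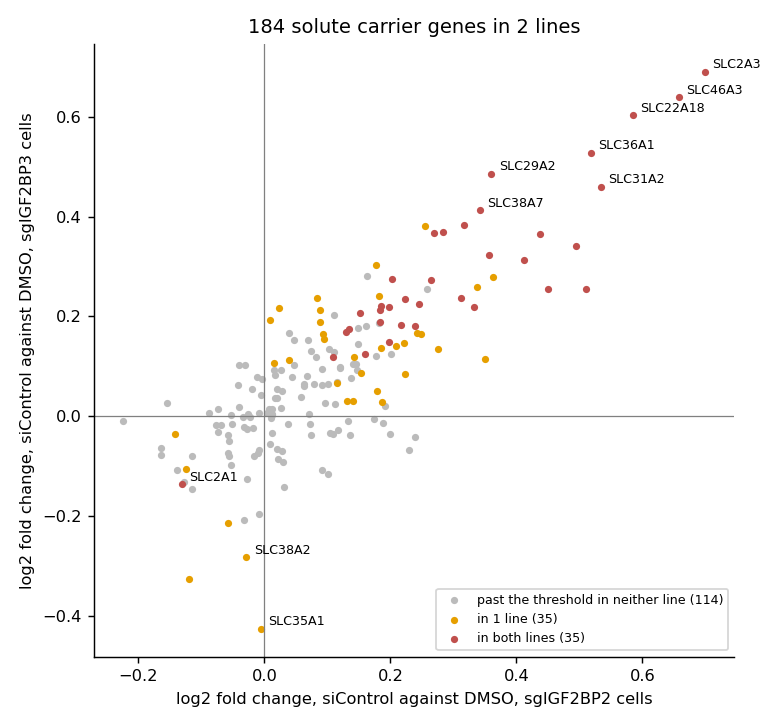
Log2 fold change of siControl against DMSO for each of the 184 genes, in sgIGF2BP2 cells (horizontal) and sgIGF2BP3 cells (vertical); colours mark genes called in neither line (114), in 1 line (35) and in both (35). The points called in both lie in the upper right, except SLC2A1 in the lower left.

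The rises were spread over many roles. Of the 26 amino acid carriers, 11 rose in sgIGF2BP2 and 8 in sgIGF2BP3 cells, and 1 fell in each, SLC1A5 and SLC38A2 respectively. Of the 21 SLC35 genes 8 and 6 rose, and of the 8 carriers of iron, copper, heme, manganese and magnesium 4 and 6 rose with none lower. Of the 37 mitochondrial carriers, 4 and 2 were called, all higher, with medians of 0.0195 and 0.00466. These role counts stand beside 10.2% and 10.9% higher and 8.16% and 8.54% lower over all genes tested, and differences between roles were not tested.

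SLC2A3 (ENSG00000059804, GRCh38 chr12:7919230-7936275, minus strand) had the greatest rise. In sgIGF2BP2 cells it stood at 16.2, 19.6, 16.3 and 15.9 CPM with siControl and at 12.1, 9.09, 10.4 and 10.3 CPM with DMSO, a rise of 0.70 (SE 0.09, edgeR adjusted p = 2.04e-09). In sgIGF2BP3 cells it stood at 15.7, 18, 17.8 and 16 CPM against 8.83, 11.9, 10.5 and 10.7 CPM, a rise of 0.69 (SE 0.09, edgeR adjusted p = 5.66e-09). The groups did not overlap in either line. The more abundant SLC2A1 fell by 0.13 and 0.14 (edgeR adjusted p = 0.0117 and 0.00907), with calls lost without DMSO replicate 2 or siControl replicate 1 of sgIGF2BP2 cells and without DMSO replicate 1 or siControl replicate 4 of sgIGF2BP3 cells.

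Among amino acid carriers, SLC36A1 stood at 37.1, 32.9, 33.4 and 36.2 CPM against 23.3, 25.9, 24.7 and 23.7 CPM in sgIGF2BP2 cells. The sgIGF2BP3 libraries gave 36.7, 36.7, 37.3 and 36.1 CPM against 26.6, 26.6, 23 and 25.4 CPM. It rose by 0.52 and 0.53 (SE 0.07 and 0.07, edgeR adjusted p = 4.15e-09 and 2.66e-09), so the lower level with siIGF2BP3, 28.2 to 31.5 CPM, still lay above every DMSO library of that line. SLC38A7, a lysosomal glutamine carrier, rose by 0.34 and 0.41 (edgeR adjusted p = 1.34e-07 and 6.46e-10), SLC66A1, a lysosomal carrier of basic amino acids, by 0.27 and 0.37 (edgeR adjusted p = 6.61e-05 and 1.09e-07), and SLC43A1 by 0.32 and 0.38 (edgeR adjusted p = 4.05e-06 and 5.37e-08). SLC38A2 had a change of -0.03 in sgIGF2BP2 cells (edgeR adjusted p = 0.807) and fell by 0.28 in sgIGF2BP3 cells (63.9, 55.6, 57.2 and 53.8 against 72.3, 65.6, 69.3 and 72.4 CPM, edgeR adjusted p = 0.000456).

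Of the metal carriers, SLC11A2 (DMT1), an iron importer, stood at 38.3, 37.4, 36.4 and 30.8 CPM against 26.4, 24.4, 24.8 and 26.5 CPM in sgIGF2BP2 cells, a rise of 0.49 (SE 0.06, edgeR adjusted p = 2.57e-09), and rose by 0.34 in sgIGF2BP3 cells (edgeR adjusted p = 2.69e-05). SLC31A2, a copper carrier of endosomes, rose by 0.53 and 0.46 (edgeR adjusted p = 3.02e-06 and 7.09e-05). SLC46A3 rose by 0.66 and 0.64 (edgeR adjusted p = 0.00232 and 0.00481), the nucleoside carrier SLC29A2 by 0.36 and 0.49 (edgeR adjusted p = 2.77e-05 and 6.76e-08), and SLC4A7 by 0.45 in sgIGF2BP2 cells (edgeR adjusted p = 5.94e-07). The summed colorectal epithelial markers, mostly KRT18 and KRT8, were lower with siControl. They stood at 244.7 to 248.9 against 278 to 292.4 CPM in sgIGF2BP2 and 247.5 to 264.3 against 274.4 to 286.4 CPM in sgIGF2BP3 cells. The part of these markers in the changes was not tested.

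Since these genes moved together, the 250 bases before their start were searched in the RefSeq promoter table (GRCh38.p14), on both strands, for CACGTG, the site of TFEB, MYC and related factors, and for TGATGNAA, the site of ATF4 with its partners. CACGTG was found in 19 of the 151 solute carrier genes with a window (12.6%), against 6.49% of 27305 windows. Those windows were not limited to protein-coding genes or to genes at the count threshold, so the shares are not like for like. Among genes that rose with siControl in both lines it was found in 2 of 27 (7.41%), in SLC43A1 and SLC25A13, which are shown with the match in capitals. With siIGF2BP2 it was in 3 of 29 higher (10.3%) and 5 of 39 lower genes (12.8%). TGATGNAA was found in 2 of 151 windows (1.32%), against 3.19%. The windows are chr11:57515703-57515952 for SLC43A1 and chr7:96322099-96322348 for SLC25A13, both on the minus strand, and the matches start 112 and 154 bases before the gene.
SLC43A1: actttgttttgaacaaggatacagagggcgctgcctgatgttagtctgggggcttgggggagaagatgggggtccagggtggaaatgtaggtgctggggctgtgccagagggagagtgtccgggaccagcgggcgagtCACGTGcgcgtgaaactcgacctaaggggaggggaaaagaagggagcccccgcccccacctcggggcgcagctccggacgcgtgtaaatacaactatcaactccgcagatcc
SLC25A13: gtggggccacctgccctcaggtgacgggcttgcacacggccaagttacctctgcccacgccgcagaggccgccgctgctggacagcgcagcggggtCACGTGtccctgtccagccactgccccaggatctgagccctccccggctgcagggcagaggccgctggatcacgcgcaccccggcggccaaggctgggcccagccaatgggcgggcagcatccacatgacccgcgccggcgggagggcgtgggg
A match describes the letters of the window and is not a bound site, and most genes that rose held none.

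Genes that work beside the solute carriers were counted the same way. Of 38 tested transporters without an SLC symbol, 8 were higher and 5 lower with siIGF2BP2, 0 and 1 with siIGF2BP3, and 9 and 2 with siControl in sgIGF2BP2 cells and 6 and 0 in sgIGF2BP3 cells. These are 34.2%, 2.63%, 28.9% and 15.8%, against 36.8%, 2.34%, 18.4% and 19.4% of all genes tested. The mitochondrial pyruvate carrier subunit MPC1 rose by 0.54 with siIGF2BP2 (19.8 ± 1.43 against 13.7 ± 0.896 CPM, SD, n = 4, edgeR adjusted p = 1.67e-06). With Dox, 3 and 3 of the 38 were called in sgAAVS1, 5 and 3 in sgIGF2BP2 and 1 and 0 in sgIGF2BP3 cells, which is 15.8%, 21.1% and 2.63% against 15.9%, 20.4% and 2.64%. Of 25 tested partners and regulators of solute carrier proteins, 4 were higher and 6 lower with siIGF2BP2 (40% against 36.8%). With siControl, 6 were higher and 1 lower in sgIGF2BP2 cells (28% against 18.4%), and 2 and 2 in sgIGF2BP3 cells (16% against 19.4%). MYC, which is known to drive amino acid and glucose carriers, fell by 0.50 with siIGF2BP2 and by 0.41 with Dox in sgAAVS1 cells (edgeR adjusted p = 7.29e-16 and 1.70e-11), and rose by 0.19 with Dox in sgIGF2BP2 cells (412 ± 34.5 against 362 ± 5.87 CPM, SD, n = 4, edgeR adjusted p = 0.000562). ATF4, the factor of the amino acid response, fell by 0.22 and 0.11 with siControl (edgeR adjusted p = 5.17e-06 and 0.0346) and rose by 0.11 with siIGF2BP2 (edgeR adjusted p = 0.0110). The call of ATF4 with siIGF2BP2 was lost without replicate 3 of either group, and that in sgIGF2BP3 cells without DMSO replicate 1, 3 or 4 or siControl replicate 1, 2 or 4.

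Of the 8 tested solute carrier genes listed for the amino acid response, those called moved in both directions in most comparisons. SLC38A2 and SLC3A2 rose and SLC1A4 and SLC7A1 fell with Dox in sgIGF2BP2 cells, and SLC3A2 and SLC1A4 rose while SLC7A5 and SLC7A1 fell with siIGF2BP2. With Dox in sgAAVS1 cells SLC38A1 rose and SLC1A5, SLC43A1 and SLC7A5 fell. In each of these comparisons 50% of the 8 were called, against 20.4%, 36.8% and 15.9% of all genes tested, in the order given. SLC7A1 lost its call in 4 or 5 alternatives both with Dox in sgIGF2BP2 cells and with siIGF2BP2, among them the fit of only the groups compared. The call of SLC3A2 with Dox was lost without DMSO replicate 1 or Dox replicate 2. In sgAAVS1 cells SLC38A1 and SLC7A5 lost theirs in 5 and 6 alternatives, without DMSO replicate 1, 2 or 3 or any 1 of the Dox replicates for at least 1 of the pair. Of the 4 solute carrier genes listed for hypoxia, 3 fell with siIGF2BP2, SLC2A1 and SLC2A3 among them, and SLC16A3 was not called. This is 75% of a short list, against 36.8% of all genes tested called in either direction and 18.4% called lower. HIF1A fell by 0.27 with siIGF2BP2 (edgeR adjusted p = 1.04e-06), and a link between these changes was not tested. With siControl, HIF1A rose by 0.15 in sgIGF2BP2 and 0.14 in sgIGF2BP3 cells (edgeR adjusted p = 0.0120 and 0.0149). The second of these calls was lost in 4 alternatives. In both lines SLC2A3 rose and SLC2A1 fell with siControl.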

How the data were processed

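RNA from 40 samples was sequenced after s4U labelling, as poly(A)-selected directional libraries read from 1 end. The authors deposited whole-number counts per gene; bcl2fastq 2.20.0.422, STAR 2.7.5c and the build hg38 stand in the submitters' processing notes, while the counting tool, its annotation and its strand setting are not given in the sources used here. The converted bases of the label were not analysed here. Gene symbols were matched for 19895 of 19962 genes, and positions and exon lengths for 19847 in GENCODE 29.

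edgeR 4.0.16 (R 4.3.3) was run on all 40 libraries with TMM scaling (factors 0.978 to 1.03), its filter on low counts (99.98% of counts kept) and 1 coefficient per group, and p-values were adjusted over all 11428 genes tested. CPM are scaled by TMM. The fit was tested on simulated data. DESeq2 1.42.0, RLE scaling, no filter, a replicate block, only the groups compared and leaving out each library were alternatives. In each comparison the named genes were called genes whose groups do not overlap in CPM, up to 8 rises and 8 falls by size (4 and 4 for differences), with those shared between comparisons, the most abundant and the distal 17q genes; SLC7A5, SLC7A2, SLC3A2, SLC2A1, SLC30A9, SLC20A1, SLC66A1 and the regulators were chosen after their values were seen. The genes and lists were chosen with earlier results of these data known. Replicate pairs differed by 1.49 to 16.6 times counting noise per gene (median 2.27), so none was a duplicate. Totals per library limit the precision: the median SE was 0.06. Results of 2 genes of the family are counted but not reported here by name.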

Additional observations from a re-analysis of the deposited data

Results flagged for a closer look

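In 10 of 138 gene and group pairs, 1 library lay far from the other 3 of its group; chance gives about 1 in 20. SLC17A5 stood at 16.9 CPM in sgAAVS1 Dox replicate 2 and at 13.3 CPM in sgAAVS1 DMSO replicate 1, and SLC5A6 at 146 CPM in sgAAVS1 Dox replicate 2. In sgIGF2BP2 cells, SLC22A5 stood at 15.4 CPM in Dox replicate 4, SLC25A45 at 9.88 CPM in Dox replicate 1, SLC2A3 at 19.6 CPM in siControl replicate 2 and SLC39A10 at 20.0 CPM in siIGF2BP2 replicate 2. In sgIGF2BP3 cells, SLC36A1 stood at 28.2 CPM in siIGF2BP3 replicate 3, SLC38A7 at 62.7 CPM in siControl replicate 1 and SLC43A1 at 40.1 CPM in DMSO replicate 3.

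The Dox effect differed from that in sgAAVS1 cells by a test of the difference itself. In sgIGF2BP2 cells this held for SLC38A2 (0.445), SLC29A3 (0.536), SLC43A2 (0.536) and SLC27A5 (0.339), the last lost in 12 alternatives. In sgIGF2BP3 cells it held for SLC41A2 (-0.66), SLC27A2 (-0.292) and SLC17A9 (0.198), which lost the call in 2, 5 and 6 alternatives, all 3 of them without sgIGF2BP3 DMSO replicate 4; SLC41A2 also lost it without sgAAVS1 Dox replicate 4. The siIGF2BP3 effect differed from the siIGF2BP2 effect for SLC4A8 (0.321), SLC35A4 (-0.328) and SLC36A1 (-0.293).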

How the results depend on the processing

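Of 340 called gene and comparison pairs, 204 kept the call in every alternative and 136 lost it in at least 1; over 4954 fits 557 lost the call and 0 changed sign. Of 180 counts of called genes, 166 stayed within 1.5 times. For Dox in sgIGF2BP3 cells (6), leaving out 1 library gave 1 to 6. For siIGF2BP3 (2), the fit of only the groups compared gave 5, and leaving out 1 library gave 1 to 3. For the differences of the Dox effect (11 in sgIGF2BP2 and 14 in sgIGF2BP3 cells), leaving out 1 library gave 9 to 17 and 8 to 26. For sgIGF2BP3 against sgAAVS1 cells with DMSO (0), no filter gave 1. The cause was not tested, beyond the fewer samples or other genes tested. The ranges with 1 library left out were 22 to 31 for Dox in sgAAVS1, 30 to 39 for Dox in sgIGF2BP2, 74 to 84 for siIGF2BP2, 36 to 46 for the difference between siRNAs, and 42 to 51 and 43 to 51 for siControl in sgIGF2BP2 and sgIGF2BP3 cells. RLE scaling moved no median over all genes by more than 0.006. Deviations of same-numbered replicates had weak correlations, from -0.09 to 0.097. For siControl against DMSO in sgIGF2BP2 cells, all 4 libraries matched their own number best (0.044 to 0.092). The same held for sgIGF2BP3 against sgAAVS1 cells with DMSO (0.022 to 0.097). These correlations therefore do not settle whether the numbers pair the samples. With the replicate block the counts for Dox were 32, 45 and 7 in sgAAVS1, sgIGF2BP2 and sgIGF2BP3 cells. They were 87 and 2 for siIGF2BP2 and siIGF2BP3, and 55 and 52 for siControl. Depth limits the low genes: over the 7 comparisons the smallest change called was 0.29 under 10 CPM and 0.0979 over 100 CPM.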
